A study of Danio rerio with 5 samples.

Results

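Keratins build the intermediate filaments of epithelial cells, and each filament pairs a type I keratin with a type II keratin. In mammalian skin, KRT5 and its type I partners mark the basal layer, which holds the stem cells on the basement membrane, while simple and embryonic surface epithelia use other pairs. The keratin genes described here were listed for high counts in basal or adult basal cells of the zebrafish: krt5, krt15, krt91, krt93 and krtt1c19e. They are 5 of 19 keratin genes by symbol and 5 of 30849 gene symbols in the deposited table. They were chosen by their counts in these same 5 libraries, so their levels and differences are given as a description, with no test.

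RNA was sequenced from 5 libraries of fluorescence-sorted epidermal cells of a Tübingen-derived zebrafish strain. Adult basal cells were sorted from the caudal fin of Tg(itgb4:mcherry) fish into 1 library, and the labels give no age in numbers. Embryonic basal precursors, from the same transgene at 1 day after fertilization, made 2 libraries. Embryonic periderm cells, also at 1 day, made 2 libraries. Their transgenes were krt4:creERt2, an Olactb cassette of loxP-dsRed2-loxP followed by egfp, and a cryaa:egfp marker. Periderm is the outer sheet of the embryonic skin. The sorts rest on the activity of the itgb4 and krt4 promoters, and the adult cells differ from the embryonic ones in age and body site together. Nothing in the labels ties replicates to separate clutches, so p-values reflect how far these samples vary, a variation that may be technical.

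The kept rows, 1 per gene symbol, summed to between 3521994 counts in the adult library and 7505594 in periderm replicate 2. Levels are TMM-scaled CPM, that is, counts relative to the library's scaled total. A level of 1.38 CPM corresponds to 3 counts in the adult library, as does 0.338 to 0.567 CPM in the embryo. The integrin gene itgb4, whose reporter defined the basal sorts, measured 3915 CPM in adult basal cells, 488 and 498 CPM in embryonic basal precursors, and 9.67 and 41.5 CPM in periderm. Of 8 basal markers, itgb4 among them, 7 were in the table. Their sum was 10532 CPM in the adult library and between 798 and 874 CPM in embryonic basal precursors, against 63.1 and 154 CPM in periderm. itgb4 itself was the largest part of the embryonic basal sums. tp63 and itga6b had more counts in both embryonic basal libraries than in both periderm libraries. Counts overlapped for dst (34 and 77 against 57 and 135) and col17a1b (18 and 41 against 13 and 33), also relative to the scaled totals. Those of col17a1a overlapped as well (87 and 60 against 7 and 72). Relative to the scaled totals, though, col17a1a was higher in both basal libraries, as periderm replicate 2 was the largest library. lama3 was at 0 in all 5 libraries. The sum of 10 periderm markers, of which krt4, krt17 and cyt1 are keratins, was 1581 CPM in the adult library, 30486 and 22383 CPM in embryonic basal precursors, and 85961 and 46497 CPM in periderm. Most of the embryonic sums was krt4, with 23978 and 18238 CPM in basal replicates 1 and 2. The markers that are no keratins each had 12 to 175 counts in the embryonic basal libraries, against 1712 to 16847 in periderm. In the adult library they had 37 to 158 counts, except icn2 with 2282. In bulk RNA, fewer cells of a type and less RNA per cell cannot be told apart.

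All 5 genes had their highest level in the adult library, which follows in part from their choice for high basal or adult counts. The name "basal" held for only part of them in the embryo. With 2 libraries per population, separation can arise by chance, and the share of all genes with such patterns was not counted. krt15 and krt91 were higher in both basal libraries than in both periderm libraries. krt5 was lower in both, krtt1c19e overlapped between the populations, and krt93 had no counts in embryonic basal precursors.

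**Figure D1:**
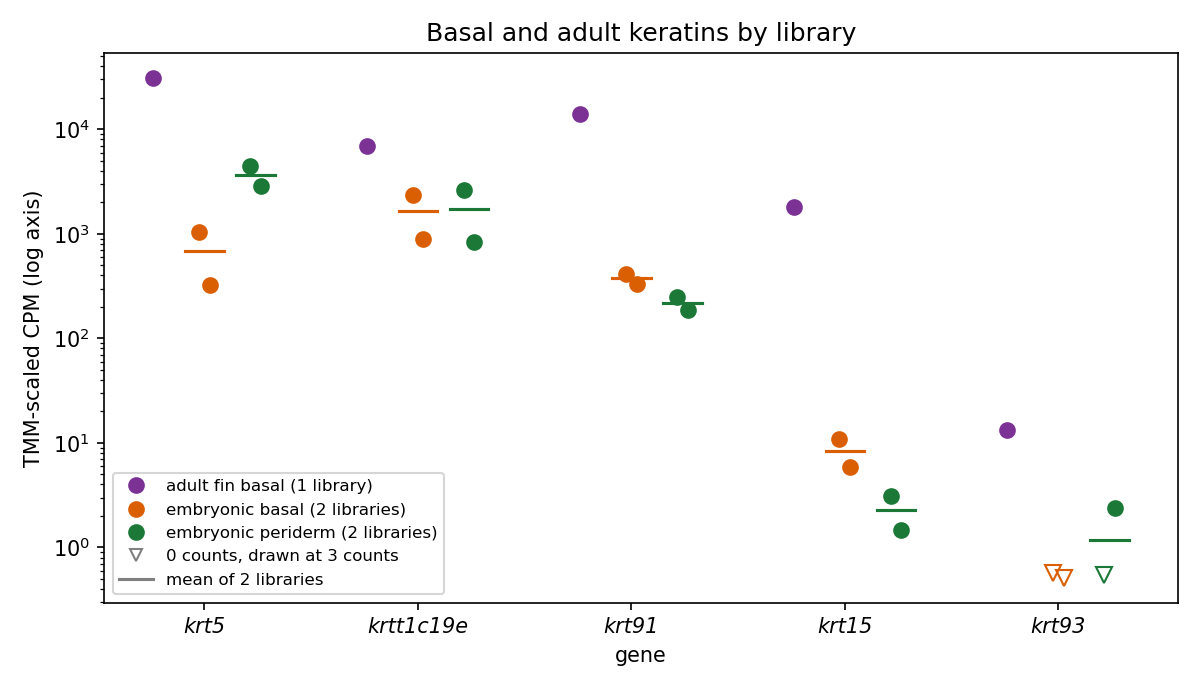
TMM-scaled CPM of the 5 genes (log axis) in each library, with adult fin basal cells on the left, embryonic basal precursors in the middle and embryonic periderm on the right of each gene. Points are libraries, bars are means of 2 libraries and open triangles mark 0 counts, drawn at the level of 3 counts; the adult point is the highest for each gene, from 13.3 CPM for krt93 to 31007 CPM for krt5.

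krt5, the type II keratin of the set and the mammalian basal layer keratin by name, measured 31007 CPM in the adult library. It measured 1052 and 328 CPM in embryonic basal precursors, and 4442 and 2844 CPM in periderm. The adult library stood above all embryonic ones, and both basal libraries lay below both periderm libraries without overlap. The mean was 690 ± 512 CPM in embryonic basal precursors, against 3643 ± 1129 CPM for periderm (SD, n = 2 each), which gave a log2 fold change of -2.42 with a standard error (SE) of 0.62. Without basal replicate 1 it was -3.47, and without basal replicate 2 it was -1.80. The adult level was 45.0-fold that of embryonic basal precursors (log2 fold change 5.49, SE 0.92), a log2 value that was 6.53 without basal replicate 1 and 4.88 without basal replicate 2. It was 8.51-fold that of periderm (log2 fold change 3.09, SE 0.85). From high to low, the order was therefore adult basal, embryonic periderm, embryonic basal.

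The main periderm keratin had a smaller embryonic difference than krt5. krt4 is the type II keratin whose promoter drives creERt2 in the fish of the periderm sort. It averaged 21108 ± 4059 CPM (SD, n = 2) in embryonic basal precursors, against 45869 ± 20873 CPM (SD, n = 2) in periderm. That is a log2 fold change of -1.14 (SE 0.69), beside -2.42 (SE 0.62) for krt5, and the difference between these 2 values was not tested. Whether periderm RNA in the basal sort has a part in the embryonic krt5 level was not tested.

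krtt1c19e, a type I keratin gene whose promoter is widely used to label zebrafish basal keratinocytes, measured 6963 CPM in the adult library. Its embryonic values were 2376 and 902 CPM in basal replicates 1 and 2 and 2600 and 843 CPM in periderm replicates 1 and 2. The replicates of each embryonic population differed more than the populations did: replicate 1 was 2.63-fold replicate 2 in basal precursors and 3.09-fold in periderm. The difference between populations was -0.08 (log2, SE 0.65), and it changed sign when single libraries were left out, to 0.96 without periderm replicate 1 and 0.47 without basal replicate 2. Muscle transcripts went the other way between replicates, with 9 markers summing to 19585 and 36527 CPM in basal replicates 1 and 2, and to 17890 and 41153 CPM in periderm replicates 1 and 2. The sum over 9 heat-shock and immediate-early genes went the same way as krtt1c19e. It was 78192 and 19650 CPM in basal replicates 1 and 2, and 19670 and 9009 CPM in periderm replicates 1 and 2. Most of each sum was the heat-shock genes hsp70.1, hsp70.3 and dnajb1b. Of the immediate-early genes, egr1 went the other way in both populations (219 and 327 counts in basal, 205 and 390 in periderm replicates 1 and 2). So did fosb in periderm (70 and 286 counts). The periderm marker sums given above, mostly krt4, were also higher in replicate 1 of both populations. In the basal libraries most of the markers that are no keratins went the other way. Counts in basal replicates 1 and 2 were 22 and 39 for agr1, 47 and 99 for icn2, and 77 and 100 for anxa1c. They were 21 and 40 for cldne, 34 and 74 for evpla, and 12 and 14 for evplb, while ppl had 175 and 113. The part of these transcripts in the krtt1c19e values was not tested. In the adult library krtt1c19e was 4.25-fold above embryonic basal precursors (log2 fold change 2.09, SE 0.82) and 4.04-fold above periderm (log2 fold change 2.02, SE 0.82), the smallest adult differences among the members with a fitted fold. Against embryonic basal precursors the log2 value was 2.91 without basal replicate 1 and 1.55 without basal replicate 2, and against periderm it was 3.05 without periderm replicate 1 and 1.44 without periderm replicate 2.

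krt91, a type I keratin gene, measured 14157 CPM in the adult library. It measured 416 and 335 CPM in embryonic basal precursors and 247 and 187 CPM in periderm, so the embryonic populations did not overlap and the replicates lay close together. Means were 375 ± 57.7 CPM and 217 ± 42.7 CPM (SD, n = 2 each), a 1.71-fold difference (log2 fold change 0.77, SE 0.34). The adult level was 37.7-fold that of embryonic basal precursors (log2 fold change 5.24, SE 0.63) and 65.3-fold that of periderm (log2 fold change 6.03, SE 0.65). Of the members that were higher in embryonic basal precursors than in periderm, krt91 was the more abundant one.

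krt15, a type I keratin known in mammals from basal stem cells of the hair follicle, had nearly all of its reads in the adult library, at 1805 CPM from 3932 counts. The embryonic basal libraries held 10.96 and 5.83 CPM (58 and 34 counts), and the periderm libraries 3.10 and 1.47 CPM (17 and 13 counts). All 3 populations were separate, in the order adult basal, embryonic basal, embryonic periderm. Embryonic basal precursors averaged 8.39 ± 3.63 CPM and periderm 2.28 ± 1.16 CPM (SD, n = 2 each), a log2 fold change of 1.90 (SE 0.70) that lay between 1.42 and 2.50 without 1 library, the higher value without periderm replicate 1. The adult level was 215-fold that of embryonic basal precursors (log2 fold change 7.75, SE 0.64) and 815-fold that of periderm (log2 fold change 9.67, SE 0.70), the largest adult differences in the set for which both populations had counts.

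krt93, a type I keratin gene in the same run as krt15, had the fewest counts of the set over the 5 libraries, though more than krt15 in periderm replicate 2. The adult library held 29 counts (13.3 CPM, with a 95% Poisson interval of 8.91 to 19.1 CPM). Both embryonic basal libraries had 0 counts, and periderm replicates 1 and 2 had 0 and 21 counts (2.37 CPM in replicate 2, with an interval of 1.47 to 3.62 CPM). These intervals cover counting error only. With embryonic basal precursors set at 3 counts per library, the adult level as measured was 24.6-fold theirs. This value leaves out the counting error of the adult library, and the 95% upper limit for 0 counts is 3.69 counts, so it is no strict lower bound. Against periderm, where 1 library alone held reads, the log2 fold change was 3.28 (SE 1.24). It was 2.48 without periderm replicate 1. Leaving out periderm replicate 2 leaves no periderm reads, and with periderm set at 3 counts the log2 value was then 4.62. The gene did not pass the filter on low counts in the embryonic comparison, so no embryonic fold is given.

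Per transcript length, the 5 genes made up nearly the whole keratin message of the adult library and a small part of it in the embryo. Their share of the summed keratin RPKM, from the kept rows, was 95.7% in adult basal cells, 10.5% and 6.67% in embryonic basal precursors, and 7.31% and 6.66% in periderm. With reads at all places of a gene added, the share per length was 95.3% in the adult library. It was then 7.51% and 5.26% in embryonic basal precursors, and 5.35% and 5.09% in periderm. The shares of single genes that follow rest on the kept rows. In the adult library krt5 took 44.5%, krt91 32.1%, krtt1c19e 15.1%, krt15 3.97% and krt93 0.0281%. In embryonic basal replicates 1 and 2, krtt1c19e led the set with 7.06% and 4.08%, ahead of krt5 with 2.07% and 0.981% and krt91 with 1.29% and 1.58%. In periderm replicates 1 and 2, krt5 led with 3.71% and 4.29%, ahead of krtt1c19e with 3.28% and 1.92%. The order of the leading members thus differed between all 3 populations, but below krtt1c19e it also differed between the embryonic basal replicates. krt5 led in the adult and the periderm libraries alike.

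**Figure D2:**
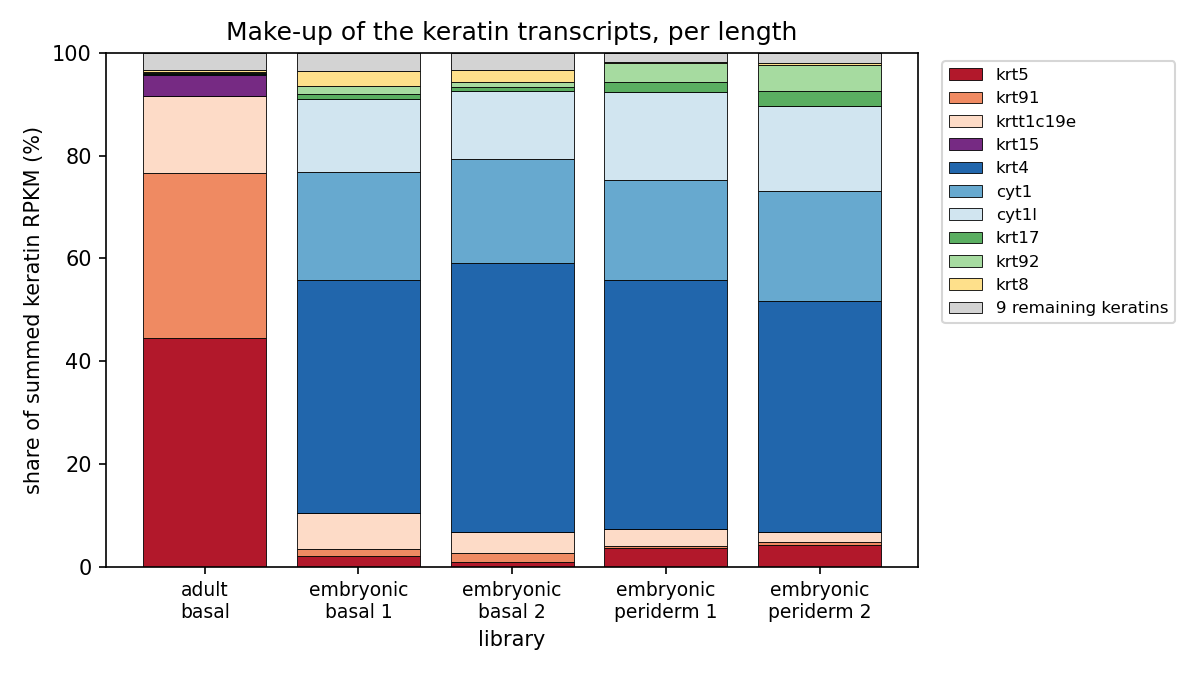
Share of the summed keratin RPKM (percent, kept rows alone) taken by 10 keratin genes and the 9 remaining ones in each library, with krt93 among the latter. Red, orange, pale and purple segments (krt5, krt91, krtt1c19e, krt15) fill most of the adult bar, while krt4, cyt1 and cyt1l (blue) hold between 80.7% and 85.9% of each embryonic bar.

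The rest of the embryonic keratin message came from krt4 and the type I enveloping layer cytokeratins cyt1 and cyt1l. Together these 3 genes took 0.322% of keratin RPKM in adult basal cells, 80.7% and 85.9% in embryonic basal precursors, and 85.0% and 83.1% in periderm. Per length with reads at all places added, they took 0.601% in the adult library, 84.7% and 87.4% in embryonic basal precursors, and 89.0% and 86.8% in periderm. All keratins together took 3.46% of gene counts in the adult library, 3.99% and 3.35% in embryonic basal precursors, and 11.8% and 6.37% in periderm. These shares rest on the kept rows, and with reads at all places of a gene added they were 3.45% in the adult library, 5.71% and 4.30% in embryonic basal precursors, and 16.01% and 8.51% in periderm. The adult share was below both periderm shares in either count, and below both basal shares only with all places added. By RPKM, krt5 ranked 10th of all 30849 genes in the adult library, krt91 17th and krtt1c19e 30th, while krt15 ranked 137th. High ranks were not limited to the adult library. krtt1c19e ranked 46th and 132nd in embryonic basal replicates 1 and 2, and 36th and 149th in periderm replicates 1 and 2. krt5 ranked 202nd and 547th in embryonic basal precursors, and 32nd and 60th in periderm. krt91 ranked between 347th and 603rd in the embryo.

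Both keratin types were covered by members in the adult library. krt5 made up 98.8% of type II keratin RPKM there, against 4.12% and 1.76% in embryonic basal precursors and 7.07% and 8.63% in periderm. The 4 type I members made up 93.1% of type I RPKM in adult cells, 16.9% and 12.9% in embryonic basal precursors, and 7.58% and 4.71% in periderm. Summed type I over type II RPKM was 1.22 in the adult library, 0.987 and 0.795 in embryonic basal precursors, and 0.906 and 1.01 in periderm. That ratio rests on which rows count for krt4. With reads at all places of a gene added, it was 1.20 in the adult library, 0.554 and 0.536 in embryonic basal precursors, and 0.530 and 0.625 in periderm. The krt5 share of type II message per length was then 97.9% in the adult library, 2.32% and 1.19% in embryonic basal precursors, and 4.17% and 5.33% in periderm.

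**Figure D3:**
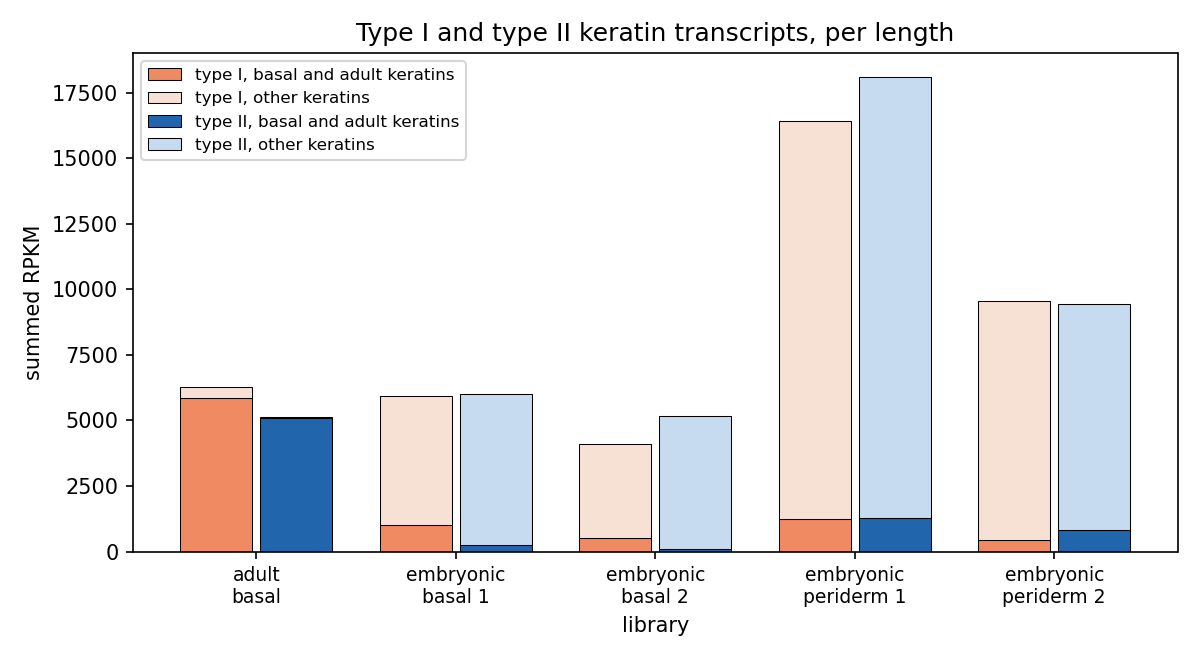
Summed RPKM of type I (orange) and type II (blue) keratins in each library, with the basal and adult keratins in the dark lower part of each bar and the other keratins in the pale upper part. Dark segments fill 93.1% of the type I bar and 98.8% of the type II bar in the adult library and at most 16.9% and 8.63% in the embryonic ones.

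Some of the genes stand in more than 1 row or beside close relatives. krt5 had rows at 2 places under the same accession, and its second place held between 0 and 0.908% of the kept row's counts, 595 against 67565 counts in the adult library. krt15 also had 2 places, with 13 against 3932 counts in the adult library and 0 counts at the second place in the embryo. The 2 isoform rows at the second krt5 place had identical counts. krt91, krt93 and krtt1c19e had 1 row each. By contrast, the second place of krt4 held between 47.8% and 105% of its kept row, and that of krt8 between 57.9% and 92.0%. The CPM values given for krt4 and krt8 rest on the kept row. How reads with several alignments were treated is not given in the sources used here, so reads of near-identical copies cannot be told apart.

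The members lie in 3 groups of neighbouring keratin genes, by the order of the RefSeq table. krtt1c19e (krt1-19e there) and krt91 belong to a run of 7 type I genes, krt1-19d, krtt1c19e, krt92, cyt1l, cyt1, krt17 and krt91. krt93 and krt15 lie with krt94, and krt5 lies beside krt8 and krt18. Between adult and embryonic basal cells, krtt1c19e and krt91 had positive differences (2.09 and 5.24 on the log2 scale), while krt92, cyt1l, cyt1 and krt17, which lie between them, had negative ones (-2.12, -7.97, -9.51 and -1.40). krt1-19d, on the other side of krtt1c19e, was positive as well (2.47). Neighbours in 1 run thus had differences of opposite sign. Those of cyt1l, cyt1 and krt1-19d passed the test given further on, while krt92 and krt17 did not (adjusted p = 0.0600 and 0.115, edgeR's quasi-likelihood test). In the krt15 group, krt94 measured 103 CPM in the adult library, 7.18 and 5.65 CPM in embryonic basal precursors, and 7.11 and 9.59 CPM in periderm. Of 2 genes listed there under clone names, krt98 (zgc:171226) had 14 adult counts and 0 embryonic ones, and krt99 (zgc:110712) had 1 adult count, 309 and 304 in embryonic basal precursors, and 452 and 280 in periderm. krt8, a simple epithelial type II keratin beside krt5, measured 171 CPM in the adult library, 1367 and 681 CPM in embryonic basal precursors, and 205 and 236 CPM in periderm, an embryonic order opposite to that of krt5.

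**Figure D4:**
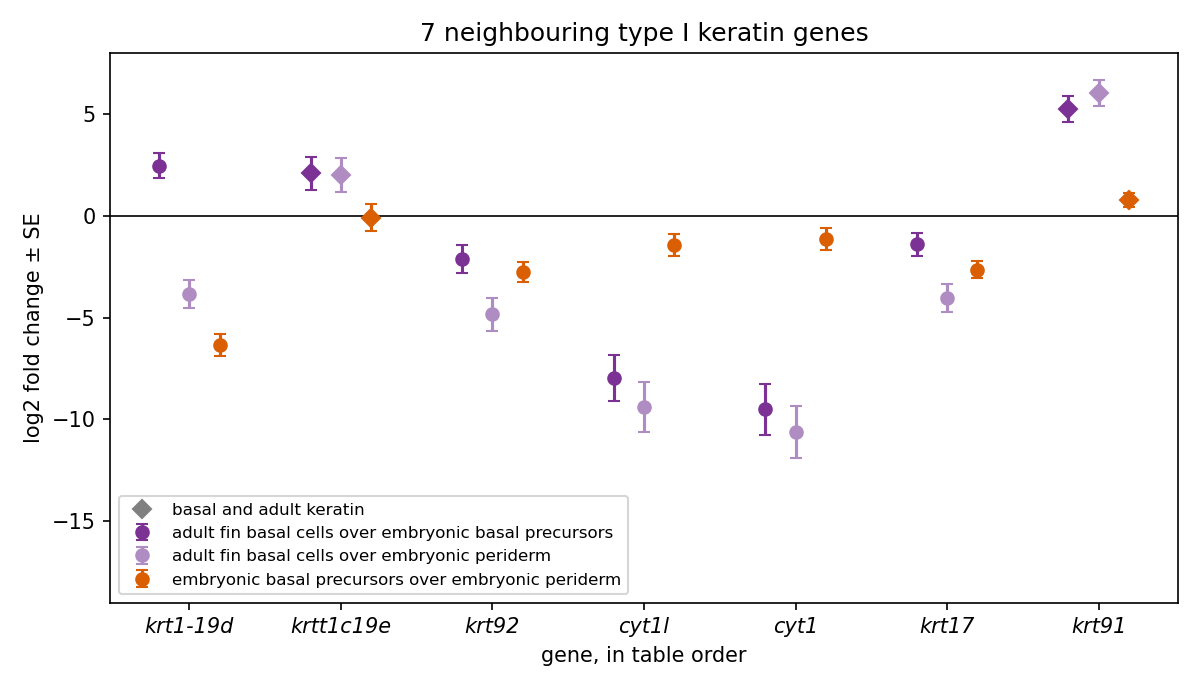
Log2 fold changes with SE of 7 neighbouring type I keratin genes, in table order, for adult over embryonic basal, adult over embryonic periderm and embryonic basal over embryonic periderm. Diamonds mark krtt1c19e and krt91, whose adult differences are positive (2.09 and 5.24 over embryonic basal), on either side of 4 genes with negative ones, down to -9.51 for cyt1. krt1-19d is also positive over embryonic basal (2.47), but negative over periderm (-3.85).

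The 14 other keratins were tested with edgeR's quasi-likelihood test in fits of all genes, and 13 of them passed the filter on low counts (krt95 had none). Since the 5 genes taken out of the family had been listed as high in basal cells, the directions of the others are partly set by that choice. Between embryonic basal precursors and periderm, 1 was higher and 3 were lower, 30.8% of those tested against 3.50% of 15589 genes (0.956% higher and 2.54% lower). Their median log2 fold change was -0.41, against -0.02 over all genes. The sorts also differed in sums over markers listed for cells outside the epidermis. The sum over 9 mesenchyme markers was 6378 and 5356 CPM in embryonic basal precursors, against 1265 and 1902 CPM in periderm. A single gene, col1a2, supplied most of each of these sums (25808 and 24479 against 5277 and 13941 counts). Whether its reads came from cells outside the epidermis was not tested. By counts, prrx1a (222 and 267 against 243 and 166) and pdgfra (252 and 348 against 132 and 312) overlapped. Relative to the scaled library totals, prrx1a still overlapped, but pdgfra was higher in both basal libraries. The sum over 6 pigment cell markers was 47.4 and 133 CPM in basal precursors, against 1278 and 861 CPM in periderm. Over 6 leukocyte markers it was 2.46 and 8.40 CPM, against 133 and 213 CPM, with 2 of the 6 at 0 in each basal library. The part of all these marker transcripts in the keratin differences was not tested. krt1-19d, a type I gene beside krtt1c19e, measured 5.10 and 4.80 CPM in basal precursors, against 547 and 248 CPM in periderm (log2 fold change -6.34, SE 0.55, adjusted p = 0.00335). krt92 was 6.70-fold lower (adjusted p = 0.0331), krt17 was 6.26-fold lower (adjusted p = 0.0246), and krt8 was 4.57-fold higher (adjusted p = 0.0432). The krt1-19d call held in all 14 alternative settings. Leaving out periderm replicate 1 ended the calls for krt17, krt92 and krt8 (adjusted p = 0.154, 0.194 and 0.291). The same 3 calls ended when periderm replicate 2 was left out (adjusted p = 0.0521, 0.0735 and 0.143), and the krt8 call ended without basal replicate 1 as well (adjusted p = 0.166). With all rows summed, the krt92 and krt8 calls ended (adjusted p = 0.0599 and 0.0761). The krt8 call also ended with the older quasi-likelihood fit, with all 5 libraries in the fit and with places summed (adjusted p = 0.0594, 0.0505 and 0.0542), so that it held in 7 of 14 alternatives. Over the alternatives, adjusted p lay between 2.87e-06 and 0.154 for krt17, 6.66e-06 and 0.194 for krt92, and 0.000326 and 0.291 for krt8.

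In the adult library against embryonic basal precursors, 2 of the 13 other keratins were higher and 5 lower, 53.8% of those tested against 23.1% of 18147 genes (11.6% higher and 11.4% lower). The median was -2.12, or -1.62 with krt1-c5 placed at its bound of 3 counts, against -0.59 over all genes. The single adult library was assumed to vary like the embryonic ones. krt94 was 16.1-fold higher (adjusted p = 0.00236) and krt1-19d 5.55-fold higher (adjusted p = 0.0246). Among the lower ones, the log2 fold change was -9.51 for cyt1, -7.97 for cyt1l, -6.74 for krt4 and -3.42 for krt222 (adjusted p = 0.00254, 0.00368, 0.0127 and 0.00803). cyt1 measured 6.88 CPM in the adult library, against 6182 and 3912 CPM in embryonic basal precursors. The krt4 call was lost without periderm replicate 1 or 2 (adjusted p = 0.115 and 0.142, range over 12 alternatives 6.00e-23 to 0.142), and so was that of krt8, which was 5.98-fold lower (adjusted p = 0.0248; 0.0556 and 0.0543 without those libraries; range 0.00130 to 0.0556). The krt1-19d call was lost without basal replicate 1 (adjusted p = 0.0629) and with total counts alone (adjusted p = 0.0685, range 0.00198 to 0.0685).

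Against embryonic periderm, 2 of the 13 were higher in the adult library and 7 lower, 69.2% of those tested against 28.6% of all genes (14.2% higher and 14.4% lower), with a median of -3.85, or -3.23 with krt1-c5 at its bound, against -0.72 over all genes. krt94 was 12.3-fold and krt97 2.92-fold higher (adjusted p = 0.00262 and 0.0394). The krt97 call was lost without periderm replicate 1 or 2 (adjusted p = 0.158 and 0.139), with no filter beyond 1 count (adjusted p = 0.0611) and with total counts alone (adjusted p = 0.303, range over 12 alternatives 0.00744 to 0.303). On the lower side, the log2 fold change was -10.62 for cyt1, -9.40 for cyt1l, -7.86 for krt4 and -4.84 for krt92 (adjusted p = 0.00176, 0.00213, 0.00710 and 0.00488). The krt4 call was lost without periderm replicate 1 or 2 (adjusted p = 0.110 each, range 2.67e-32 to 0.110). krt4 is among the 7 lower ones, and the periderm sort rests on its promoter, so its direction is partly set by design. Both adult comparisons share the adult library, and the periderm comparison shares its embryonic controls with the embryonic one. The adult library also held the highest sum over 9 heat-shock and immediate-early genes, 143581 CPM, against 78192 and 19650 CPM in embryonic basal precursors and 19670 and 9009 CPM in periderm. Its sum over the 9 muscle markers was 3.67 CPM, from 3 of the 9 genes. The part of both in the keratin values was not tested.

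Among themselves the 5 genes had different profiles over the 5 libraries. As the root mean square distance between log2 CPM profiles, each centred on its own mean, krt15 and krt91 lay closest (1.28) and krt15 and krtt1c19e farthest apart (2.68). Outside the keratin family, the candidates were 5601 genes with a mean of at least 20 CPM over the 5 libraries. The nearest of them lay closer to krt91 and krtt1c19e than to the others. For krt91 they were nab1b, a transcriptional corepressor gene, itpripl2 and btbd6a (distances 0.18, 0.18 and 0.26). For krtt1c19e they were dnm1l, the mitochondrial fission GTPase, pik3ip1 and capgb, an actin capping gene (0.25, 0.25 and 0.27). dnm1l measured 93.6 CPM in the adult library, 48.0 and 15.1 CPM in basal replicates 1 and 2, and 52.5 and 18.1 CPM in periderm replicates 1 and 2, replicate 1 being the higher one in both populations, as for krtt1c19e. For krt5 the nearest were ctss2.1, a cathepsin gene, pon1, a paraoxonase gene, and cyp26c1, a retinoic acid hydroxylase gene (0.40, 0.63 and 0.67). For krt15 they were ms4a17a.1, epgn, an EGF family ligand gene, and sod3b, an extracellular superoxide dismutase gene (0.60, 0.65 and 0.66). epgn measured 2045 CPM in the adult library, 26.3 and 8.22 CPM in embryonic basal precursors, and 3.28 and 5.87 CPM in periderm. sod3b measured 166 CPM in the adult library and 0 to 1.13 CPM in the embryonic ones. It thus reached the required mean through the adult library alone. For krt93, whose profile rests on 50 counts in all, tspan35 and the transfer RNA genes trnN and trnC were nearest (0.55, 0.69 and 0.77). With 5 libraries, of which 1 is adult, these distances are a description alone.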

How the data were processed

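Reads were counted by the authors, with HISAT2 2.2.1 and featureCounts 2.0.3 on GRCz11 per the submitters' processing notes. The sources used here give neither strand use nor the annotation release. The deposited counts are whole numbers per transcript row, 75805 rows in all, without normalization. The deposited RPKM values, which the authors normalized per kilobase and library total, were used for levels between genes and shares. TPM values, which the authors also deposited, were not used here. Of 57 names turned into dates, 46 were matched by accession and 11 kept their accession, which gave 30849 symbols.

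For each symbol 1 row, that of greatest mean count, was kept. Tests used edgeR 4.0.16 in R 4.3.3 (filterByExpr, TMM, glmQLFit, glmQLFTest, Benjamini-Hochberg adjustment over all genes, threshold 0.05) on 4 embryonic libraries for the embryonic comparison and on all 5 for the adult ones. SEs were derived from the fold change and its F statistic (|log2 fold change|/√F). The code was tested on simulated data. Alternatives were other scalings and filters, DESeq2 1.42.0, the older quasi-likelihood fit, leaving out each embryonic library, a replicate block, all rows summed, all 5 libraries in the embryonic fit and, chosen after the data were seen, places summed (rows over 20 apart).

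The members and lists were chosen with earlier results of these data known. The keratin list is every symbol beginning with krt, without krtcap names, plus cyt1 and cyt1l. Keratin types follow the table's product names and common usage, since no protein sequences were used here. Named genes were the members, itgb4, krt4, up to 4 called keratins per direction with at least 10 CPM (krt8 was added after its values were seen where it ranked lower), and 3 nearest genes per member. Gene order came from a RefSeq table of GRCz12tu, used for names and order alone.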

Additional observations from a re-analysis of the deposited data

How the results depend on the processing

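Of the members' log2 fold changes, all but that of krtt1c19e between the embryonic populations kept their direction in each alternative run. krtt1c19e lay between -0.92 and 0.96 without 1 library (0.96 without periderm replicate 1 and 0.47 without basal replicate 2), and krt5 between -3.47 and -1.80. With total counts in place of TMM, the median over all genes moved to -1.38 from -0.59 in the adult against embryonic basal comparison and to -1.66 from -0.72 against periderm. The members' adult values moved with it. Against embryonic basal precursors, krt5 was then 4.78, krt15 6.99, krt91 4.46 and krtt1c19e 1.36 (2.09 with TMM). For krt93 the value with embryonic basal precursors set at 3 counts was 3.83 (4.62 with TMM). Against periderm, krt5 was 2.15, krt15 8.74, krt91 5.09, krt93 2.335 and krtt1c19e 1.08 (2.02 with TMM). Of the other keratins, 4 were called between the embryonic populations, and 2 with all rows summed. DESeq2 called cyt1l in addition (adjusted p = 0.0487, DESeq2). Calls that ended without single libraries are given above. Over all genes the embryonic count of 545 became 1396 with DESeq2, 349 with the older quasi-likelihood fit and 208 with all rows summed, and it ran from 73 to 1009 without 1 library. The 2 adult counts stayed within 1.5 times of 4186 and 5199 in each alternative, but total counts moved the split to 1507 higher and 3890 lower against embryonic basal precursors and to 1793 higher and 5134 lower against periderm. RLE scaling gave 2452 higher and 1812 lower against embryonic basal precursors. With the replicate number as a block, 584 genes were called and krt5 was -2.62. The labels do not say that equal numbers share a clutch, and replicate differences correlated at 0.169 across 18147 genes, which with 2 pairs does not settle the pairing. Depth limits krt93 and the embryonic krt15 values most.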
